A study of Rattus norvegicus with 12 samples.

Results

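The circadian clock genes of INS-1 cells were examined in 4 treatment groups by RNA-Seq. The genes were chosen by name: Per1, Per2, Per3, Cry1, Cry2, Arntl, Clock, Dbp, Nr1d1 and Nr1d2. Of these 10 genes, 8 were listed in the deposited table of 9694 genes. Clock and Dbp had no entry in that table, and nothing is said here of their levels. INS-1 cells derive from a rat insulinoma and secrete insulin, and all groups came from this 1 line, grown in the same RPMI-1640 medium. VC cells received the DMSO vehicle, and IB cells received I-BET762 at 500 nM, a small molecule that blocks the bromodomains of BET proteins. CCVC cells received vehicle and a cytokine cocktail of TNF-α at 25 ng/mL, IL-1β at 10 ng/mL and IFN-γ at 100 ng/mL, and CCIB cells received I-BET762 and the same cocktail. I-BET762 or vehicle was given for 48 h before the cytokines. The cytokine exposure is 8 h in the treatment protocol and in the paper, while the design text of the deposit gives the last 24 h of 72 h. The sources thus differ on the time.

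Each group had 3 libraries, and the table holds 1 FPKM value per gene and group, which scales the fragments by the length of the gene and the size of the library. With 1 column a group, this table gives no error on any value and allows no test between groups, and no p-value is given. Values of single libraries accompany the paper and were not used here. The methods state a minimum number of reads per library, but the depth of each library cannot be read from the table. No hour of harvest and no step to synchronise the clocks of the cells is given in the sources used here. Differences are given as log2 ratios between group values after adding 1 FPKM, which understates the difference of genes with low levels. A gene was counted as higher or lower where this ratio reached 1.5-fold, over the 8795 genes whose mean over the groups reached 1 FPKM, and all 8 clock genes were among them. The authors listed only genes they had called as changed in some comparison, so the shares given for all genes are shares of that list, and a clock gene had to be called to be seen at all.

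The clock of mammalian cells is a feedback loop of transcription. CLOCK and BMAL1, the product of Arntl, bind E-box elements and activate the Per and Cry genes, whose proteins return to the nucleus and block their own activators. In a linked loop the nuclear receptors REV-ERBα and REV-ERBβ, the products of Nr1d1 and Nr1d2, repress Arntl, while the ROR receptors activate it through the same elements. β-cells have such a clock, and its loss in mice impairs insulin secretion.

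Several clock gene promoters hold elements of these loops. RefSeq promoter sequences of the GRCr8 assembly, 250 bases before to 50 bases after an annotated start, were found for 9 of the 10 named genes (Arntl under its current symbol, Bmal1). Both strands were searched for the E-box CACGTG, the related E'-box CACGTT, the D-box TTATGTAA or TTACGTAA, the REV-ERB and ROR core AGGTCA, and the cAMP response element TGACGTCA. The stretches below show the matches in capitals, 5′ to 3′ on the strand of the gene. They are shown because Arntl, Nr1d1 and Nr1d2 form the linked loop, whose levels differed with cytokines, and because Per2 carries the E'-box and the D-box together.
Arntl (GRCr8 chr1:176766238-176766327, plus strand): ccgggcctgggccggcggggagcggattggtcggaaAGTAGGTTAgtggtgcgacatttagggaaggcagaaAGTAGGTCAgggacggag
Nr1d1, inner start (GRCr8 chr10:84229605-84229684, minus strand): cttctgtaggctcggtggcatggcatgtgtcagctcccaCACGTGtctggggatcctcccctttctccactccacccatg
Nr1d1, outer start (GRCr8 chr10:84231953-84232022, minus strand): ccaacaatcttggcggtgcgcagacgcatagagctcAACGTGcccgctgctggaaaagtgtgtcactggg
Nr1d2 (GRCr8 chr15:9954814-9954883, plus strand): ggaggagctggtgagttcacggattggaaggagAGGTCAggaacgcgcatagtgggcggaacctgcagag
Per2 (GRCr8 chr9:99497024-99497203, minus strand): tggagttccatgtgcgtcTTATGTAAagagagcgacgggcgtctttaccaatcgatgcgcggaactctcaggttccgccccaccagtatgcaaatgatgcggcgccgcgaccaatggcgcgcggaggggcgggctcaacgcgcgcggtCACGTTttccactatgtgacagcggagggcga

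The Arntl promoter holds 2 copies of AGTAGGTNA, and the copy nearer the start contains the core AGGTCA. This longer element was searched after the promoter had been read, and it occurs in 202 of 33469 promoters (0.604%), of which 2 hold more than 1 copy. The core AGGTCA, the match in Nr1d2, occurs in 16.2% of promoters. The E-box of the inner Nr1d1 start is found in 6.42% of promoters, the E'-box of the outer start, of Per2 and of Cry2 in 4.83%, and the D-box of Per2 in 1.01%. None of these sequences was found in the windows of Per1, Per3, Clock or Dbp, and the cAMP response element was found in no window of the clock genes. A match describes letters only, and binding was not measured.

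Nr1d1 differed most of the 8 genes. Nr1d1, the repressor REV-ERBα (ENSRNOG00000009329, chromosome 10 from 86479868 to 86486598 as deposited, in a build not named in the sources used here), had 4.57 FPKM in VC and 5.18 in IB, against 19.4 in CCVC and 23.7 in CCIB. Both groups with cytokines were thus far above both groups without them. The level in CCVC was 4.26 times that in VC, a log2 ratio of 1.88 that was larger than in 98.4% of the genes measured. With I-BET in both groups, CCIB was 4.58 times IB, a log2 ratio of 2.00. These comparisons share no library. In RNA from whole cultures, more cells that express a gene and more RNA per cell cannot be told apart. Nr1d1 moved from the 16.4 percentile of gene levels in VC to the 61.2 percentile in CCIB.

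The Nr1d1 gene overlaps Thra, which encodes a thyroid hormone receptor on the opposite strand, over 1059 bases (15.7% of the Nr1d1 span). Whether strand was used in counting is not given in the sources used here, so reads in the overlap cannot be assigned to either gene. Thra had 16.7 FPKM in VC and 13.4 in IB, against 12.2 in CCVC and 8.76 in CCIB. It was therefore lowest in the group in which Nr1d1 was highest.

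Nr1d2, the repressor REV-ERBβ, started from a higher level and differed less. It had 23.5 FPKM in VC and 26.8 in IB, against 40.1 in CCVC and 37.0 in CCIB. The log2 ratio was 0.74 for CCVC against VC and 0.45 for CCIB against IB, so the latter did not reach 1.5-fold. Nr1d1 took 16.3% of the summed FPKM of the pair in VC and 16.2% in IB, but 32.6% in CCVC and 39.1% in CCIB. The make-up of the pair shifted towards Nr1d1 with cytokines, while the sum went from 28.1 FPKM in VC to 59.5 in CCVC and 60.7 in CCIB.

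Arntl, which encodes the activator BMAL1 (ENSRNOG00000014448, chromosome 1 from 185007568 to 185105409 as deposited), was higher with cytokines as well. It had 7.70 FPKM in VC and 6.88 in IB, against 15.6 in CCVC and 14.5 in CCIB. The log2 ratio was 0.93 for CCVC against VC and 0.97 for CCIB against IB, near the 93.3 and 93.7 percentiles of all genes. The activator and its repressors were thus higher in the same groups. The summed FPKM of Nr1d1 and Nr1d2 was 3.65 times that of Arntl in VC, 4.64 times in IB, 3.83 times in CCVC and 4.19 times in CCIB. Nr1d1 alone stood below Arntl in VC (ratio 0.593) and in IB (0.753) and above it in CCIB (1.64).

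**Figure D1:**
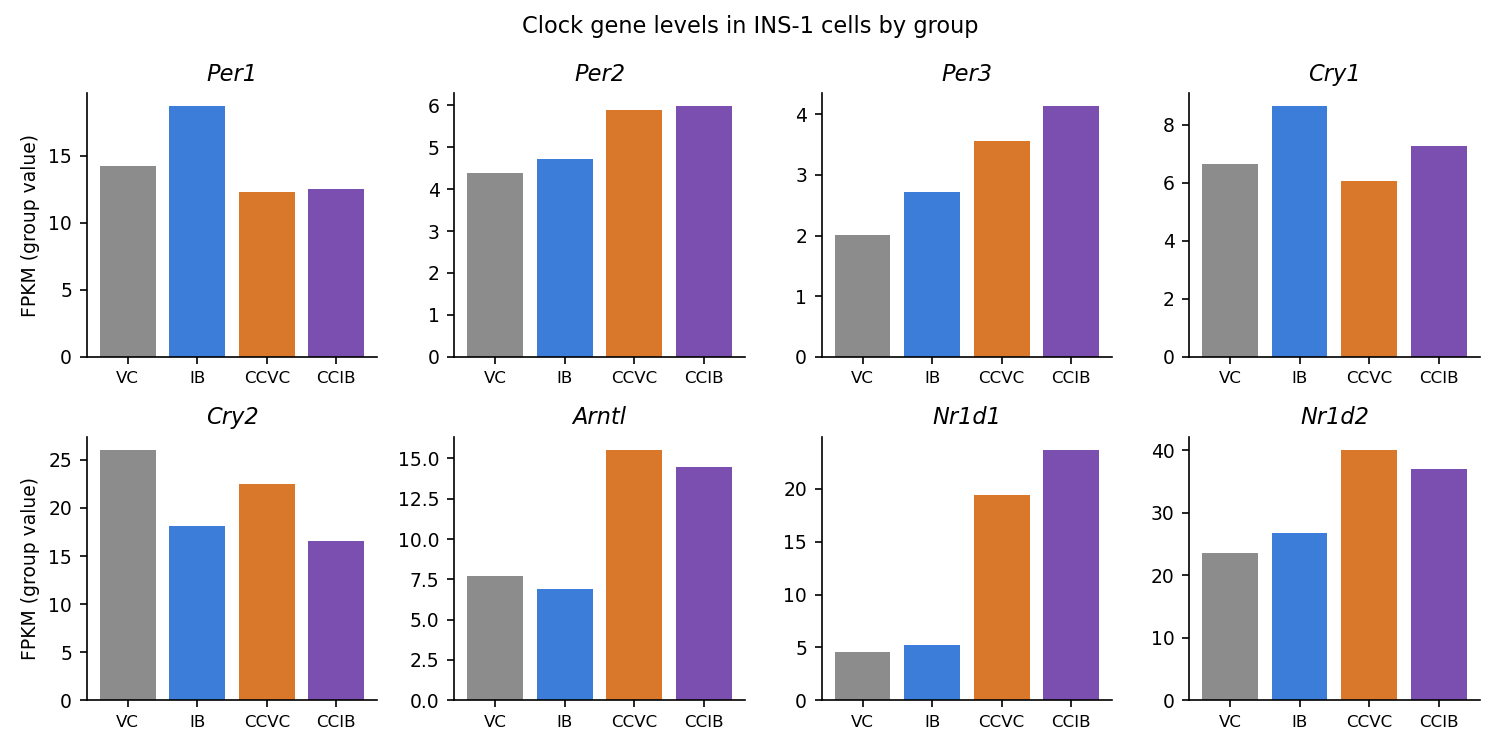
FPKM of the 8 clock genes (vertical axes from 0, 1 panel a gene, each on its own scale) in the 4 groups, where a bar is the authors' value of a group of 3 libraries, with no error available. Nr1d1 stands at 4.57 and 5.18 FPKM without cytokines and at 19.4 and 23.7 with them, while Cry2 is lower in the I-BET groups (18.1 and 16.6) than in VC and CCVC (26.1 and 22.5).

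The period genes, whose proteins are repressors of CLOCK and BMAL1, went different ways. Per3 was the lowest of the 8 genes in every group, at 2.01 FPKM in VC, 2.71 with I-BET alone, 3.56 in CCVC and 4.14 in CCIB. Its log2 ratio for CCVC against VC was 0.60, the member just inside 1.5-fold, and for CCIB against IB it was 0.47, or 0.59 with a pseudocount of 0.1 FPKM. Per2 had 4.38 FPKM in VC and 4.73 in IB, against 5.88 in CCVC and 5.99 in CCIB. Its log2 ratios for the same comparisons were 0.36 and 0.29. It was the nearest member outside 1.5-fold in CCVC against VC, while in CCIB against IB the nearest was Per1 (-0.54). Per1, the most abundant of them, had 14.3 FPKM in VC and 18.7 in IB, against 12.3 in CCVC and 12.6 in CCIB. It was highest in IB and lowest in CCVC, with a log2 ratio of -0.20 for CCVC against VC and -0.54 for CCIB against IB. Per1 took 69.1% of the summed FPKM of the period genes in VC and 71.5% in IB, against 56.6% in CCVC and 55.4% in CCIB. The sum itself was 20.6 FPKM in VC and 26.2 in IB, and 21.7 in CCVC and 22.7 in CCIB.

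The cryptochrome genes, which encode the partners of the PER proteins in repression, had ratios of opposite sign with I-BET, none of which reached 1.5-fold. Cry2 had 26.1 FPKM in VC and 18.1 in IB, against 22.5 in CCVC and 16.6 in CCIB. It was lower with I-BET in either state, with log2 ratios of -0.50 for IB against VC and -0.42 for CCIB against CCVC, neither of which reached 1.5-fold. Cry1 had 6.63 FPKM in VC and 8.64 in IB, against 6.07 in CCVC and 7.26 in CCIB, and its ratios with I-BET had the other sign, 0.34 and 0.22. Cry2 took 79.7% of the summed FPKM of the pair in VC and 78.8% in CCVC, against 67.7% in IB and 69.6% in CCIB. The share of Cry2 was thus lower with I-BET both with and without cytokines, and these 2 comparisons share no library.

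**Figure D2:**
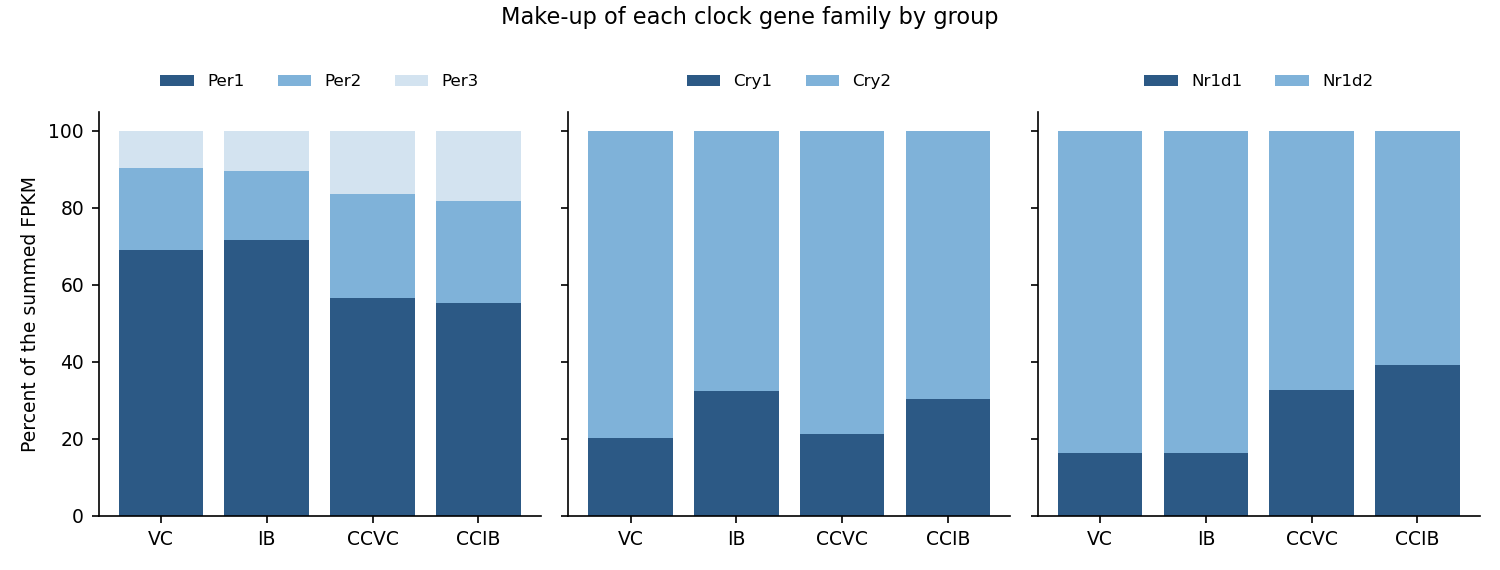
Percent of the summed FPKM (vertical axis) taken by each member of the Per, Cry and Nr1d families in the 4 groups, with no error available. The share of Nr1d1 goes from 16.3% in VC to 32.6% in CCVC, and that of Cry1 from 20.3% in VC to 32.3% in IB.

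With cytokines and no I-BET, 4 of the 8 clock genes (Nr1d1, Arntl, Nr1d2 and Per3) were higher by 1.5-fold or more and 0 were lower. Of all genes measured, 13.9% were higher and 10.2% were lower. The clock genes had a median log2 ratio of 0.48, against -0.01 over all genes. In cells with I-BET, CCIB against IB, 2 of the 8 (Nr1d1 and Arntl) were higher and 0 were lower, with 12.9% of all genes higher and 12.9% lower. The median was 0.37, against -0.05 over all genes. Both were higher in each comparison, as were 10.1% of all genes, and of the genes higher in CCVC than in VC, 72.9% were also higher in CCIB than in IB. All 8 clock genes had the same sign in both comparisons, but the share of all genes that did so was not counted.

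**Figure D3:**
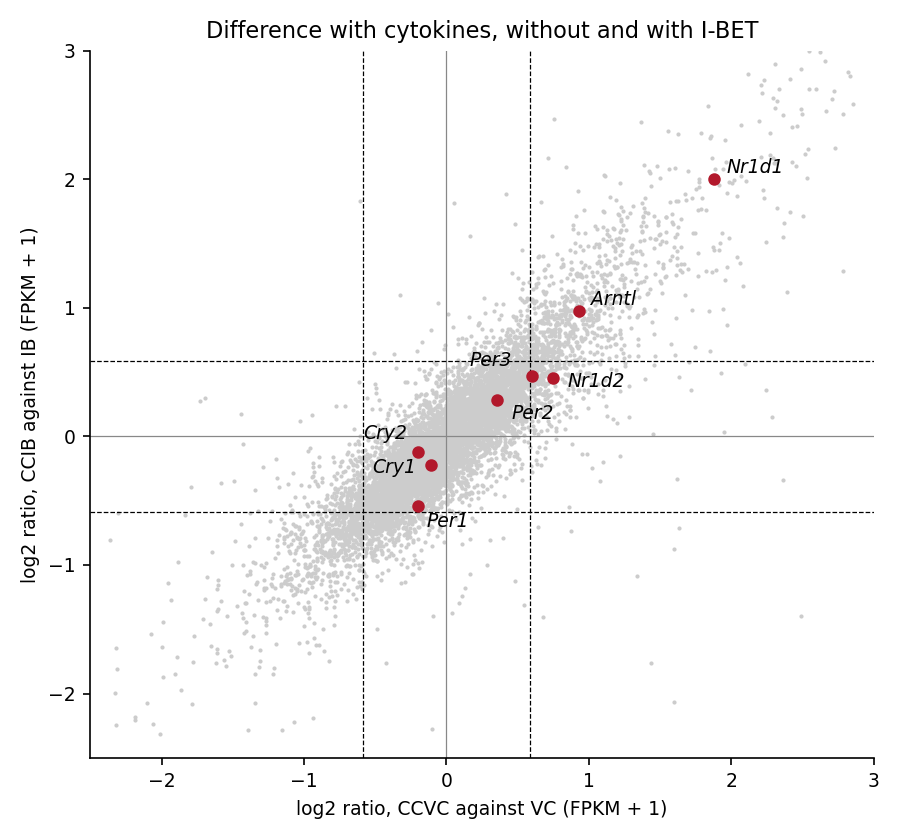
Log2 ratio with cytokines in cells without I-BET (CCVC against VC, horizontal) and with I-BET (CCIB against IB, vertical), after adding 1 FPKM, for all genes measured (grey) and the 8 clock genes (red), with dashed lines at 1.5-fold. Nr1d1 (1.88 and 2.00) and Arntl (0.93 and 0.97) lie beyond the lines in both directions, and 73 grey genes lie outside the axis limits.

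With I-BET alone, none of the 8 clock genes passed 1.5-fold in either direction, while 4.96% of all genes were higher and 10.5% lower. The ratios of IB against VC ran from -0.50 for Cry2 to 0.37 for Per1, with a median of 0.16 against -0.04 over all genes. In cytokine-exposed cells, 0 of the 8 passed 1.5-fold in CCIB against CCVC, while 3.4% of all genes were higher and 11.6% lower. Here the ratios ran from -0.42 for Cry2 to 0.28 for Nr1d1, with a median of 0.03 against -0.07 over all genes. The higher level of Nr1d1 and Arntl in CCVC was therefore still present in CCIB, at 23.7 and 14.5 FPKM. The I-BET difference in cytokine-exposed cells minus that in cells without cytokines was between -0.34 for Per1 and 0.13 for Nr1d1 on the log2 scale, and no member reached 1.5-fold, as 2.01% of all genes did upwards and 2.84% downwards. Whether any of these differences exceeds the spread between libraries was not tested, since the deposited table holds no library values.

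Against VC, which is part of other comparisons above, CCIB had 4 clock genes higher (Nr1d1 at 5.20 times, Per3 at 2.06 times, Arntl at 1.88 times and Nr1d2 at 1.57 times the VC level) and 1 lower, Cry2, with a log2 ratio of -0.62. Of all genes, 13.7% were higher and 21% lower. Cry2 fell short of 1.5-fold once the ratios were centred on the median of all genes (-0.56).

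**Figure D4:**
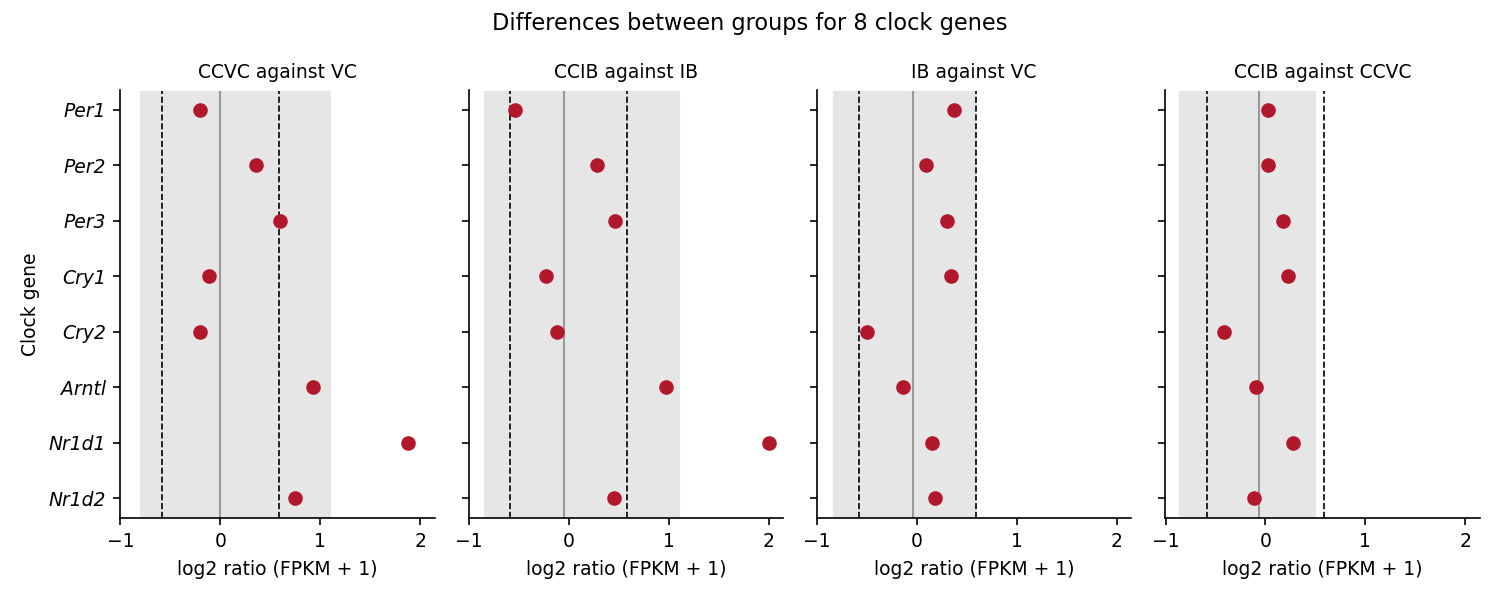
Log2 ratios after adding 1 FPKM (horizontal axes) of the 8 clock genes in 4 comparisons, where the grey band spans the 5 to 95 percentiles of all genes, the grey line is their median and dashed lines mark 1.5-fold. Nr1d1 lies above the band in both comparisons with cytokines, and no clock gene passes a dashed line in the comparisons of I-BET with vehicle.

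In the order of levels, Cry2 (26.1 FPKM), Nr1d2 (23.5) and Per1 (14.3) led in VC, and Nr1d1 stood next to Per2 near the bottom. In CCIB the order was Nr1d2 (37.0 FPKM), Nr1d1 (23.7), Cry2 (16.6), Arntl (14.5), Per1 (12.6), Cry1 (7.26), Per2 (5.99) and Per3 (4.14). Neighbours in this order cannot be told apart by error, since none is given. The median gene of the table was at 17.5 FPKM in VC and 17.0 in CCIB, and 6 of the 8 clock genes lay below it in each. The lowest of the 4 group values lay in VC for 4 of the 8 genes, against 23.2% of all genes.

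Other factors of the clock, most of them transcription factors, were also mostly higher with cytokines in cells without I-BET. Of 12 that are reported here, 9 were measured. Timeless and Tipin, whose proteins act at the replication fork, are counted among these 9. In CCVC against VC, 6 of the 9 were higher and 0 lower, where 13.9% of all genes were higher and 10.2% lower. Their median log2 ratio was 0.85, against -0.01 over all genes. With I-BET in both groups, 4 of the 9 were higher, 0 were lower and the median was 0.58, against 12.9% in each direction and a median of -0.05 over all genes. Bhlhe40 and Bhlhe41 encode the repressors DEC1 and DEC2, which compete for E-boxes. Bhlhe40 had 36.5 FPKM in VC and 26.5 in IB, against 86.6 in CCVC and 94.0 in CCIB, and Bhlhe41 had 19.0, 14.6, 39.7 and 36.1 in the same groups. Bhlhe40 had log2 ratios of 1.22 without I-BET and 1.79 with it. Ciart, which encodes a repressor that binds BMAL1, had 1.35 FPKM in VC and 3.58 in IB, against 6.67 in CCVC and 5.85 in CCIB. It was thus higher with either treatment than in VC, where its level was near the minimum of 1 FPKM and has no error.

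The D-box factors did not all follow the same pattern. Nfil3, the repressor of D-box genes also called E4BP4, had 9.24 FPKM in VC and 15.6 in IB, against 22.0 in CCVC and 17.2 in CCIB. With cytokines it was higher in cells without I-BET (log2 ratio 1.17) and nearly level in cells with it (0.13). The activators Tef and Hlf, relatives of Dbp, were highest in CCIB. Hlf had 5.91 FPKM in VC and 7.86 in IB, against 11.5 in CCVC and 18.3 in CCIB, and was the only factor of this list higher in CCIB than in CCVC by 1.5-fold (log2 ratio 0.63). Tef had 16.6 FPKM in VC and 23.4 in IB, against 27.0 in CCVC and 31.2 in CCIB. For Nfil3 and Ciart the I-BET difference in cytokine-exposed cells minus that in other cells was -1.04 and -1.13 on the log2 scale. They were the only genes of the list past 1.5-fold in that measure, which was not tested. Of all genes, 2.01% passed it upwards and 2.84% downwards. The value of Ciart rests on 1.35 FPKM in VC, near the minimum.

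Rorb, which encodes a ROR receptor, was near the minimum, at 1.12 FPKM in VC and 2.33 in CCIB. Timeless and Tipin, whose proteins form a complex at the replication fork, were highest in VC, and Tipin went from 28.1 FPKM there to 18.3 in CCIB. With I-BET alone 2 of the 9 genes were higher (Ciart and Nfil3) and 0 lower, where 4.96% of all genes were higher and 10.5% lower. In CCIB against CCVC 1 was higher, Hlf, and 0 lower, where 3.4% of all genes were higher and 11.6% lower.

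**Figure D5:**
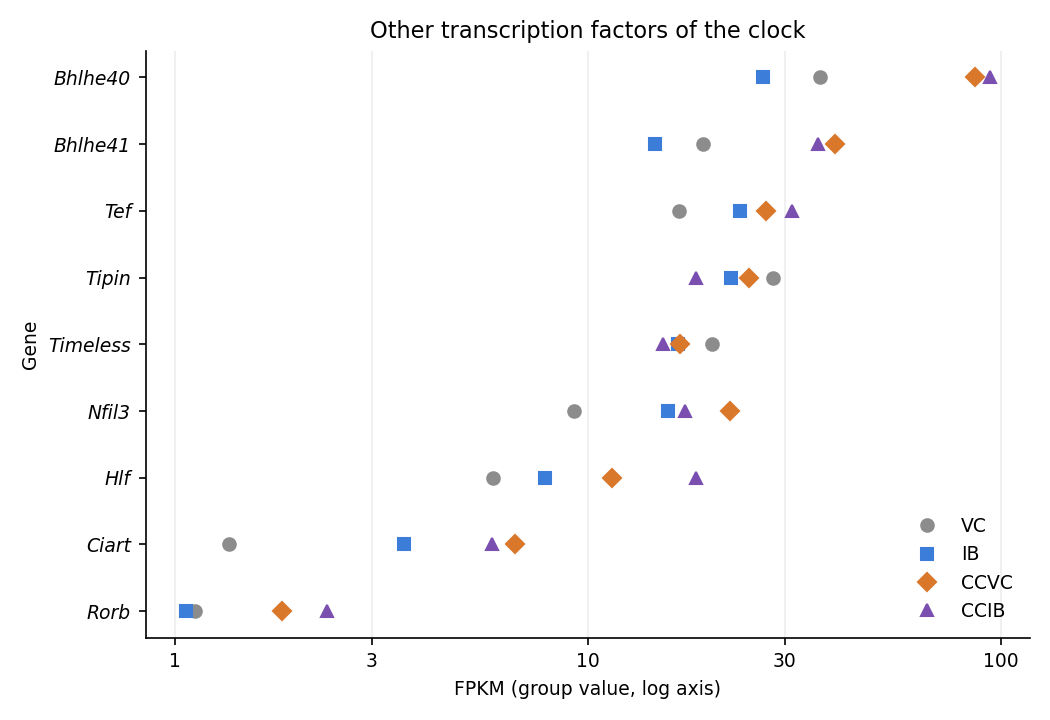
FPKM (horizontal log axis) of 9 other factors of the clock, where each symbol is the authors' value of a group of 3 libraries, with no error available. Timeless and Tipin, whose proteins act at the replication fork, are among them. Bhlhe40 stands at 26.5 to 36.5 FPKM without cytokines and 86.6 to 94.0 with them, and Ciart is lowest in VC at 1.35 FPKM.

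Kinases and ubiquitin ligases set the stability of PER and CRY proteins. With other regulators of clock proteins, such as the deacetylase gene Sirt1, 17 genes are reported here, of which 12 were measured. In CCVC against VC 1 was higher, a share near the 13.9% of all genes, and 11 were neither. Csnk1d, a casein kinase that phosphorylates PER, was between 102.6 and 108.0 FPKM in the 4 groups, and Csnk1e between 46.1 and 53.5. Past 1.5-fold with cytokines was Prkaa2, a catalytic subunit of the energy sensor AMPK, at 15.9 FPKM in VC, 6.04 with I-BET alone, 42.5 in CCVC and 20.8 in CCIB. It was higher with cytokines (log2 ratios 1.36 and 1.63) and lower with I-BET (-1.26 and -0.99). Sirt1, a deacetylase that acts on clock proteins, had 9.33 FPKM in VC and 15.3 in IB, against 12.8 in CCVC and 14.8 in CCIB. Its log2 ratio was 0.66 for IB against VC and 0.20 for CCIB against CCVC.

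Of 12 cofactors reported here, 10 were measured, and 0 were higher or lower by 1.5-fold in either comparison with cytokines. Of all genes, 13.9% were higher and 10.2% lower in CCVC against VC, and 12.9% each way in CCIB against IB. Ncor1, the corepressor on which the REV-ERB proteins rely, was at 70.9, 58.6, 63.0 and 52.1 FPKM in VC, IB, CCVC and CCIB, and Hdac3, the deacetylase it recruits, at 32.3, 40.4, 28.2 and 30.8. Sfpq, a partner of PER complexes, was lowest in CCIB (85.6 FPKM, against 143.5 in VC). It was the 1 cofactor of these 10 past 1.5-fold in CCIB against VC. Of all genes, 13.7% were higher and 21% lower there.

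With cytokines, genes that carry outside signals to the clock passed 1.5-fold only downwards in cells without I-BET and both ways in cells with it. Of 9 listed, 7 were in the table, on 8 rows. In CCVC against VC 0 of the rows were higher and 2 lower, where 13.9% of all genes were higher and 10.2% lower. In CCIB against IB 2 rows were higher and 2 lower, with 12.9% of all genes each way. Crem, which encodes activators and repressors of cAMP response elements, had 37.2 FPKM in VC and 34.7 in IB, against 9.29 in CCVC and 9.84 in CCIB. Sik1, a kinase that limits CREB signalling, was at 5.52, 7.72, 1.71 and 2.57 FPKM in the same groups. These 2 genes were the rows lower with cytokines, and both were lower in cells with I-BET too. Nr3c1, the glucocorticoid receptor gene, stood on 2 rows at 19.0 and 23.5 FPKM in VC and at 37.9 and 44.3 in CCIB. These were the 2 higher rows, with log2 ratios of 0.76 and 0.95 for CCIB against IB. For CCVC against VC their ratios were 0.43 and 0.38, short of 1.5-fold. Creb1 was between 6.37 and 8.34 FPKM in all groups.

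Of 9 output genes, 6 were measured. Nampt, the rate-limiting enzyme of NAD+ salvage and a target of CLOCK and BMAL1, had 28.9 FPKM in VC and 31.0 in IB, against 57.4 in CCVC and 59.5 in CCIB. Alas1, an enzyme of haem synthesis, was at 9.63, 8.20, 19.6 and 14.4 FPKM, and Por, the P450 reductase, at 139.3, 142.6, 86.5 and 86.4. Nampt and Alas1 were the 2 higher genes in CCVC against VC, and Por the 1 lower, where 13.9% of all genes were higher and 10.2% lower. Wee1, a cell cycle kinase, had 28.1 FPKM in VC and 21.9 in IB, against 37.1 in CCVC and 34.8 in CCIB. Klf9 was lower in CCIB (23.9 FPKM) than in CCVC (36.4), and Tsc22d3 differed with cytokines by 0.53 without I-BET and by -0.22 with it on the log2 scale.

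In both comparisons with cytokines most β-cell markers had ratios below 0, while 5 of the 8 clock genes were above 0 and 3 below. Of 11 such markers 9 were measured, of which 5 were lower, 0 higher and 4 neither by 1.5-fold in CCVC against VC. There 10.2% of all genes were lower, and the median log2 ratio of the markers was -1.01. In CCIB against IB the counts were the same and the median was -1.11, where 12.9% of all genes were lower. With I-BET, 5 of the 9 were higher in IB against VC (median 0.66) and 4 of 9 in CCIB against CCVC (median 0.56), where 4.96% and 3.4% of all genes were higher, and 0 were lower in either. Ins1, the insulin 1 gene, had 11528 FPKM in VC and 26722 in IB, against 10243 in CCVC and 20738 in CCIB. Of 16 markers of other cell types 3 were listed in the table, and the other 13 had no entry. Gcg, the glucagon gene of α-cells, had 636 FPKM in VC and 1240 in IB, against 343 in CCVC and 675 in CCIB, so it was lower with cytokines and higher with I-BET. Krt7, a keratin of duct cells, had 153 FPKM in VC and 141 in IB, against 193 in CCVC and 218 in CCIB, and Vwf of endothelial cells was at most at 0.529. The part of these markers in the clock gene differences was not tested.

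The genes most like Nr1d1 and Arntl, the members with the widest range, were sought by the Euclidean distance between the 4 log2(FPKM + 1) values after each gene was centred on its own mean, among 7818 genes with at least 5 FPKM in 1 of the groups. Nearest to Nr1d1 were Psmb8 (6.57, 7.09, 27.5 and 30.3 FPKM in VC, IB, CCVC and CCIB), Relb (28.5, 33.1, 101.1 and 122.4) and Trib2 (2.96, 3.36, 14.9 and 16.1), at distances of 0.11, 0.12 and 0.13. Nearest to Arntl were Foxn3 (7.65, 6.81, 15.6 and 15.0 FPKM), Zbtb10 (10.3 FPKM in VC and 19.5 in CCIB) and Gabrq (13.5, 11.6, 26.7 and 23.8), at distances of 0.05, 0.05 and 0.07. The clock gene nearest to Nr1d1 was Arntl, at rank 344 and a distance of 1.04. With only 4 values a gene, many genes lie close to any pattern.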

How the data were processed

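The 12 libraries of INS-1 RNA fall into 4 groups of 3 by their sample titles. Per the labels and methods, the authors filtered the reads, aligned them with HISAT2 and calculated FPKM per gene, and DESeq2 is named in the submitters' processing notes, without versions. The authors deposited FPKM values in 4 columns, 1 per group, with 0 columns of single libraries, for genes at an adjusted p under 0.05. The genome build and the use of strand are not given in the sources used here.

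Log2 ratios were computed after adding 1 FPKM, for genes whose group mean reached 1 FPKM, and counted at 1.5-fold. Alternatives were a pseudocount of 0.1 FPKM, no minimum, a minimum of 5 FPKM, median centring, upper quartile scaling, and a looser (1.25-fold) and a stricter (2-fold) criterion. Promoters and symbols came from RefSeq tables of GRCr8. All listed clock genes are described, and of other lists the genes past 1.5-fold in some comparison, up to 4 per list and comparison, while cell markers are summarised. Csnk1d, Csnk1e, Ncor1, Hdac3, Creb1, Timeless, Tsc22d3, Vwf and Thra fall outside this rule and were added once their values were known. The members and lists were chosen with earlier results of these data known. Some genes of these lists are not reported here and were left out of the counts. The calculation was tested on simulated group values. Python 3.11.15, numpy 2.4.6, pandas 2.3.3 and matplotlib 3.10.9 were used.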

Additional observations from a re-analysis of the deposited data

How the results depend on the processing

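The direction of every clock gene ratio held under each alternative run, over 234 values for the 8 genes, and 3 crossed 1.5-fold. A changed minimum leaves each ratio as it was, and a changed pseudocount cannot turn the sign of a ratio between groups. Only median centring and upper quartile scaling could therefore have changed the direction of such a ratio. With a pseudocount of 0.1 FPKM, Per3 reached it in CCIB against IB (0.59, in place of 0.47). Cry2 in CCIB against VC no longer reached it with ratios centred on the median (-0.56) or with upper quartile scaling (-0.58, in place of -0.62), so that 0 clock genes were lower there in place of 1. At 2-fold, 1 clock gene, Nr1d1, was higher against VC in CCVC and in CCIB (in place of 4 each) and against IB in CCIB (in place of 2), and 0 were lower in CCIB against VC. At the looser criterion, 4 were higher and 1 lower in CCIB against IB, 2 were higher and 1 lower in IB against VC, 1 was lower in CCIB against CCVC, and 1 had a lower I-BET difference with cytokines than without. A minimum of 5 FPKM removed Per3.

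Over all genes, 299 were higher and 1022 lower in CCIB against CCVC as deposited, and 411 and 826 with ratios centred on the median. The fold criterion moved all counts of genes by more than 1.5 times, for example from 1223 higher in CCVC against VC to 2343 at the looser criterion and 524 at 2-fold. The promoter shares fell when only bases before the start were searched, to 5.59% for the E-box and 14.1% for AGGTCA.

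No paired analysis was possible because the columns of the deposited table hold groups and carry no replicate number, and leaving out a library was not run for the same reason. The library values that accompany the paper were not used here. The depth of each library was not read from this table, and low levels such as those of Per3 carry no stated precision.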
